A study of Homo sapiens with 4 samples.

Results

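SLAMF7, CD84, CD48, CD2, IL7R, CD22, FCRLA, PAX5 and CD109 are mostly known as receptors or B cell proteins of lymphoid cells, and here they were followed in U937, a human leukemia cell line that resembles monocytes. These 9 genes, of 17656 in the deposited table, were chosen by symbol with their levels in these same libraries already known, so their values are given as a description. All 9 had a row and all 9 passed the filter of at least 1 TPM in 2 libraries. CD109 and FCRLA did so only through the group of libraries in which they were high. TPM is a gene's relative share of a library's transcripts after division by their length. The name lymphoid-type surface receptor holds for most of them but not for all. PAX5 is a nuclear transcription factor, FCRLA stays inside the cell, CD109 is also made by epithelial and endothelial cells, and CD48 is a broad leukocyte protein that was abundant in every library.

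The series set 2 NC libraries, described by the study as U937 cells without treatment, beside 2 sh-ZNF217 libraries, described as cells with ZNF217 knocked down. Elsewhere the study uses NC for a negative control, so whether the NC cells carried a control construct was not settled. ZNF217 is a zinc finger protein that works with transcriptional corepressors. The labels gave no other agent, allele or time point. Column names also hold the marks D4 and S1, which no source explains. The study's account of its RNA-Seq speaks of a Cas9 knockout, so the means of ZNF217 loss was not settled by these sources. No source tied the libraries to separate cultures, and p-values therefore measure only the spread between these libraries, which may be technical. ZNF217 mRNA stood at 36.1 and 36.7 TPM in NC and at 35.8 and 34.97 TPM in the other group, a log2 difference of -0.04 (SE 0.07, adjusted p = 0.74 by limma), and the second group is therefore called the libraries labelled sh-ZNF217. MYB, a transcription factor gene that the study follows as a target of ZNF217, fell from 219.3 and 239.1 TPM to 148.5 and 146.1 TPM (log2 fold change -0.63, adjusted p = 0.00534). Read depth was unknown, because TPM keeps no count of reads. RNA came from whole cultures, so a change in the number of cells of a type and a change in RNA per cell cannot be told apart.

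The SLAM family is a set of related surface receptors, most of which bind a copy of themselves on a neighbouring cell and signal through small adaptors such as SH2D1A. CD2 has a related immunoglobulin-like build, as does CD48, which is itself counted in the SLAM family. CD2 binds CD58, and CD48 is the ligand of the SLAM receptor CD244. IL7R is the alpha chain of the receptors for the cytokines IL7 and TSLP, on which developing lymphocytes depend. CD22 and FCRLA are B cell proteins, and PAX5 commits precursors to the B lineage. SLAMF7, CD84, CD48 and CD244 are also found on monocytes and macrophages.

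Of the 9 genes, 8 were higher in both libraries labelled sh-ZNF217 than in both NC libraries, and 1, PAX5, was lower in both. Their summed level was 141.0 and 147.7 TPM in NC against 295.8 and 298.6 TPM in the pair labelled sh-ZNF217. CD48 made up most of that sum. Without it, the other 8 genes added up to 23.2 and 24.4 TPM against 97.8 and 100.7 TPM. A gene was called where limma gave a Benjamini-Hochberg adjusted p below 0.05 and the log2 fold change of TPM + 1 was beyond 0.5 in either direction. By that rule 8 of the 9 genes were called higher, as were 6.26% of the 14582 tested genes, and 1 was called lower, as were 2.46%. The groups did not overlap for any of the 9, which was also the case for 62.2% of tested genes. The genes were selected on this contrast, so nothing is read from these counts. The median log2 fold change was 1.20 over the 9 genes and 0.02 over all tested genes.

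**Figure D1:**
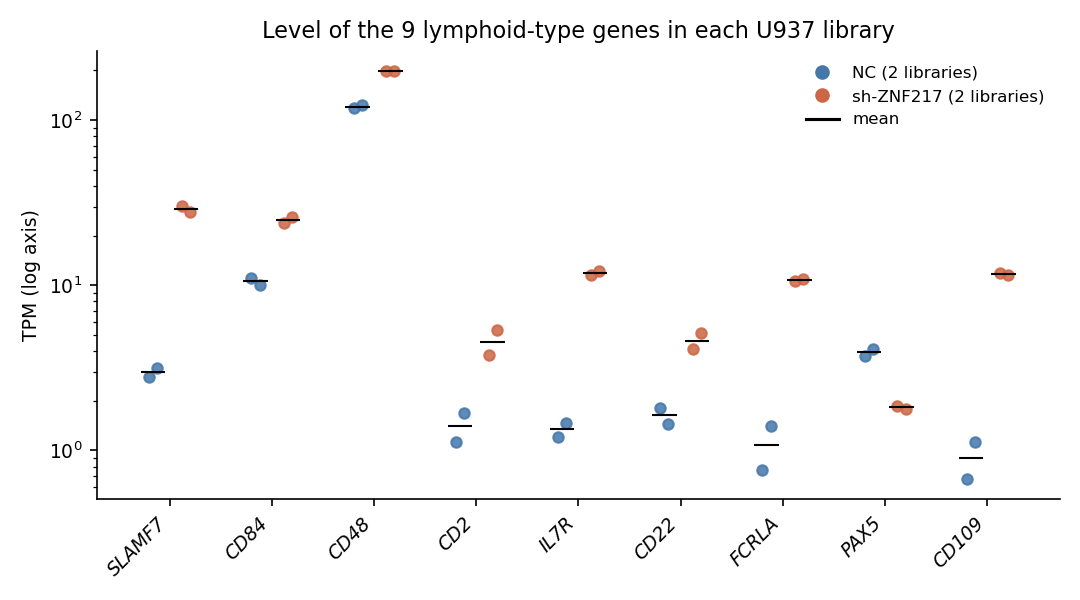
TPM of the 9 genes (log axis) in each U937 library, with 1 point per library, NC and libraries labelled sh-ZNF217 in different colours, and a bar at each group's mean. CD48 lies highest in all 4 libraries (117.8 to 198.0 TPM), and PAX5 is the gene whose libraries labelled sh-ZNF217 (1.79 and 1.87 TPM) lie below NC (3.72 and 4.13 TPM).

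SLAMF7, a self-binding receptor known from plasma cells, natural killer cells and activated macrophages, was measured at 2.79 and 3.155 TPM in NC and at 30.1 and 27.9 TPM in the pair labelled sh-ZNF217. The lowest value of the second group was 8.83 times the highest of the first. The means were 2.97 ± 0.259 and 28.99 ± 1.59 TPM (SD, n = 2 in each group), which is a 9.76-fold ratio, and the log2 fold change was 2.92 (SE 0.13). Among tested genes ordered by mean TPM, SLAMF7 lay at percentile 19.4 in NC and at percentile 62.9 in the libraries labelled sh-ZNF217. Its gene lies on chromosome 1 (chr1:160739057-160754821 of hg38, plus strand).

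CD84, a self-binding SLAM receptor of B cells, T cells, platelets and myeloid cells, stood at 11.1 and 9.99 TPM in NC and at 23.97 and 25.9 TPM in the pair labelled sh-ZNF217. The groups were well apart, with a 2.37-fold ratio of means and a log2 fold change of 1.17 (SE 0.11). The gene lies at chr1:160541095-160579516 on the minus strand. CD48, a lipid-anchored surface protein, was the most abundant of the 9 genes, at 117.8 and 123.3 TPM in NC and at 198.0 and 197.8 TPM in the pair labelled sh-ZNF217. Its ratio of 1.64-fold and its log2 fold change of 0.71 (SE 0.05) were the smallest among the 8 genes that were higher. CD48 was already at percentile 90.5 of tested genes in NC. Its gene (chr1:160678746-160711831, minus strand) shares exon sequence with a gene on the other strand, and whether reads were counted by strand is not stated, so its level may hold reads of both.

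CD2 (chr1:116754430-116769229, plus strand), the adhesion receptor of T and natural killer cells, was low throughout, at 1.12 and 1.68 TPM in NC and at 3.77 and 5.33 TPM in the pair labelled sh-ZNF217. Both values of the second group were higher, with a 3.245-fold ratio of means, but they lay 0.41 log2 units apart from each other. The log2 fold change of CD2 was 1.20 (SE 0.25), and its call was lost without NC replicate 1, without either library labelled sh-ZNF217, and with a plain variance model (log2 fold change 0.998 to 1.41 with a library left out).

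IL7R was measured at 1.21 and 1.48 TPM in NC and at 11.5 and 12.1 TPM in the pair labelled sh-ZNF217. The second group was higher by a ratio of 8.79-fold, with a log2 fold change of 2.45 (SE 0.17). From percentile 8.03 of tested genes, near the lowest levels in NC, it came to percentile 40.8. IL7R lies on chromosome 5 (chr5:35852695-35879603, plus strand), away from the other 8 genes.

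CD22, a lectin that binds sialic acid and damps signalling of the B cell receptor, stood at 1.82 and 1.45 TPM in NC and at 4.101 and 5.14 TPM in the pair labelled sh-ZNF217. The groups were separate, with a 2.83-fold ratio and a log2 fold change of 1.09 (SE 0.21). Its call was lost whenever any 1 of the 4 libraries was left out, where the log2 fold change was 0.96 to 1.225. CD22 (chr19:35319261-35347361, plus strand) shares exons with another gene and with MIR5196 on its own strand, which makes a level this low uncertain.

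FCRLA, a relative of the Fc receptors that binds immunoglobulin inside B cells, was measured at 0.759 and 1.41 TPM in NC and at 10.65 and 10.9 TPM in the pair labelled sh-ZNF217. The NC libraries lay 0.452 log2 units apart, the widest gap of any of the 9 genes within a group, and still both were far below the other group. The ratio of means was 9.97-fold and the log2 fold change 2.52 (SE 0.22). FCRLA lies at chr1:161706972-161714352 on the plus strand.

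PAX5 was the gene of the 9 with the opposite direction, at 3.72 and 4.13 TPM in NC and at 1.87 and 1.79 TPM in the pair labelled sh-ZNF217. Both NC libraries were higher, with a mean 2.14 times that of the other group and a log2 fold change of -0.80 (SE 0.19). Its call was lost without the filter on low values and whenever any 1 of the 4 libraries was left out, where the log2 fold change was -0.86 to -0.74. Exons of PAX5 (chr9:36833269-37034268, minus strand) also overlap a gene on the other strand.

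CD109, a lipid-anchored member of the thioester protein family that binds TGF-beta and its receptors, was the lowest of the 9 in NC. Its level was 0.676 and 1.12 TPM in NC and 11.8 and 11.6 TPM in the pair labelled sh-ZNF217. The ratio of means was 13.03-fold, the widest of the 9 genes, and the log2 fold change was 2.75 (SE 0.20). CD109 (chr6:73695785-73828316, plus strand) overlaps the antisense gene CD109-AS1.

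Ordered by mean TPM in NC, the 9 genes ran from CD48 through CD84, PAX5, SLAMF7, CD22, CD2, IL7R and FCRLA to CD109. PAX5 and SLAMF7 were separated by 3.93 ± 0.292 against 2.97 ± 0.259 TPM, whereas the libraries of CD22, CD2 and IL7R overlapped, and those of FCRLA overlapped with CD2, IL7R and CD109. In the libraries labelled sh-ZNF217 the order was CD48, SLAMF7, CD84, IL7R, CD109, FCRLA, CD22, CD2 and PAX5. There the libraries of IL7R and CD109 overlapped, as did those of CD22 and CD2.

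**Figure D2:**
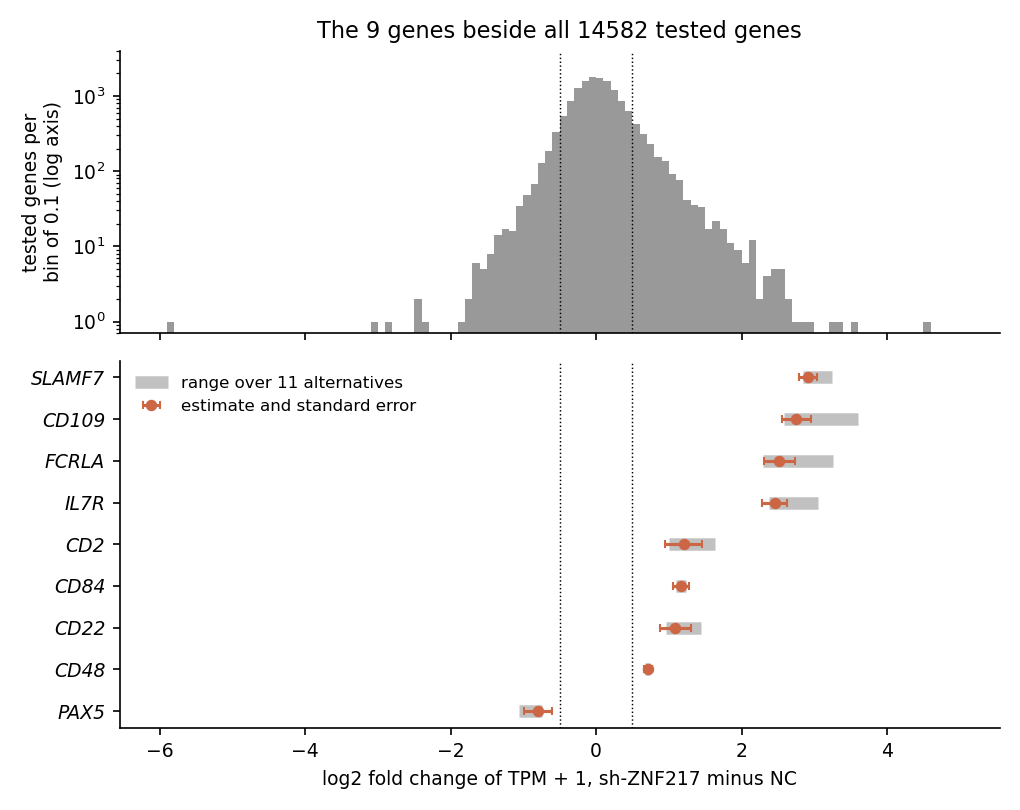
Upper panel, number of tested genes (log axis) by log2 fold change of TPM + 1, sh-ZNF217 minus NC, for all 14582 tested genes. Lower panel, the estimate (point) and standard error (bar) of each of the 9 genes with its range over 11 alternative settings (grey), and dotted lines at 0.5 and -0.5. SLAMF7, CD109, FCRLA and IL7R lie between 2.45 and 2.92, the other genes that were higher between 0.71 and 1.20, and PAX5 at -0.80.

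Promoter sequence was at hand for 7 of the 9 genes, from RefSeq on GRCh38.p14, and not for SLAMF7 or CD84. The 250 bases before each start were searched on both strands for 4 motifs of myeloid factors, chosen after the sequences had been seen. These were the PU.1-type core GAGGAA, the ETS core GGAAGT, the AP-1 motif TGANTCA and the MYB motif TAACNG. The first pair can overlap, since both hold GGAA. The following stretches of 30 bases are shown because they hold the matches, in capitals, of the genes with the widest ratios and of PAX5, each read 5′ to 3′ along the gene's strand.
IL7R chr5:35856706-35856735: gggaatatccagGAGGAAcaataatttcag
IL7R chr5:35856781-35856810: acttttactcagACTTCCtgtttctggaac
IL7R chr5:35856824-35856853: tgctgtgtttatACTTCCcttgtctgtggt
FCRLA chr1:161707173-161707202: aCAGTTAaatttACTTCCTCttttctaatc
PAX5 chr9:37034365-37034394: agcgcctaccctTTCCTCgctccgggccgg
CD109 chr6:73696161-73696190: cggtgcccgcgaACTTCCccggcagcggac

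For CD48, IL7R, CD22, FCRLA and CD109 the RefSeq start lies inside the gene as GENCODE draws it. ACTTCC is GGAAGT, and TTCCTC is GAGGAA, read on the opposite strand. In FCRLA they overlap, after CAGTTA, a MYB match on the opposite strand. CD109 held a further MYB match, 125 bases before its start. CD48, CD2 and CD22 held no match to any of the 4 motifs, and none of the 7 promoters held the AP-1 motif. Such matches are common. Of 27303 promoters, 23.4% held GAGGAA, 19.9% GGAAGT, 6.6% TGANTCA and 17.6% TAACNG in the same window. Among the 9482 of these promoters that belong to tested genes, the shares were 23.3%, 25.3%, 3.89% and 14.6% in the same order. These letters therefore describe the sequence and mark no site of binding.

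On chromosome 1, CD84, CD48 and SLAMF7 lie within the SLAM cluster, which spans 378 kb from SLAMF6 to CD244 in the order SLAMF6, CD84, SLAMF1, CD48, SLAMF7, LY9 and CD244. CD48 and SLAMF7 are 27.2 kb apart. LY9, a self-binding SLAM receptor, was at 1.625 and 2.42 TPM in NC and at 6.54 and 7.45 TPM in the pair labelled sh-ZNF217, a rise of 1.41 in log2 (SE 0.21, adjusted p = 0.0136 by limma). CD244, the receptor for CD48, rose from 32.1 and 32.8 TPM to 58.9 and 59.7 TPM, by 0.85 in log2 (SE 0.07, adjusted p = 0.00324). SLAMF1, which lies between CD84 and CD48, did not follow, with 1.12 and 1.40 TPM in NC against 1.27 and 1.03 TPM (log2 fold change -0.07, adjusted p = 0.872), and its sign changed with 1 library left out. SLAMF8, which lies outside the cluster, had a log2 fold change of -0.14 (adjusted p = 0.318). Of the 5 listed SLAM genes and adaptors tested, the 3 that were not called also included the kinase FYN, and SLAMF6, SLAMF9, SH2D1A and SH2D1B were not analysed here. LY9 was not called without the first or without the second library labelled sh-ZNF217 (adjusted p = 0.0646 and 0.0734).

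Within 500 kb of CD84, CD48 or SLAMF7, 23 other protein-coding genes were tested. Of these, 4 rose and 0 were called lower by limma, beside 6.26% and 2.46% of all tested genes. A lower level at an unadjusted p below 0.05 was seen for 2 of the 23, of which 1 passed after adjustment but not the fold minimum. Besides LY9 and CD244, those that rose were F11R, a junctional adhesion molecule, with a log2 fold change of 0.73 (SE 0.08, adjusted p = 0.00615), and ITLN1, a lectin, with 1.10 (SE 0.24, adjusted p = 0.036). The call of ITLN1 was lost whenever any 1 of the libraries was left out (adjusted p = 0.0695 to 0.14).

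FCRLA lies 952 kb beyond SLAMF7, beside the low-affinity Fc gamma receptors, which bind IgG in immune complexes. Of 14 tested neighbours of FCRLA, 5 rose, all of them Fc receptors or relatives. Among all tested genes, 6.26% were called higher. FCGR2B, the inhibitory receptor, was at 12.3 and 10.2 TPM in NC and at 31.6 and 31.9 TPM in the pair labelled sh-ZNF217 (log2 fold change 1.43, SE 0.11, adjusted p = 0.00337). FCGR2C rose by 1.55 (adjusted p = 0.00491), FCGR2A by 0.68 (adjusted p = 0.0152), FCGR3A by 1.24 (adjusted p = 0.0335) and FCRLB, the nearest relative of FCRLA, by 0.68 (adjusted p = 0.0445). FCGR2B and FCGR2C are near-identical in sequence and FCGR2A is a close relative, and how their reads were divided was not given. FCGR2A lost its call without the first library labelled sh-ZNF217 (adjusted p = 0.0727), FCGR3A without the first or second NC library (0.0706 and 0.0876), and FCRLB without any 1 of the libraries (0.102 to 0.149). Without either library labelled sh-ZNF217, FCGR3A did not pass the filter on low values.

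**Figure D3:**
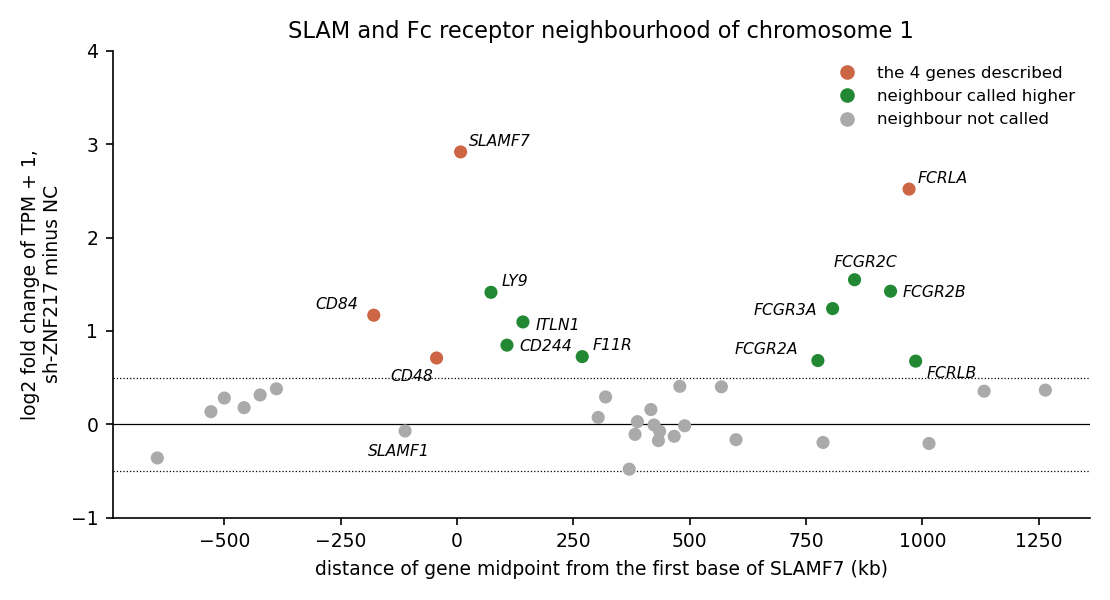
Log2 fold change of TPM + 1, sh-ZNF217 minus NC, of CD84, CD48, SLAMF7 and FCRLA and of the 34 tested protein-coding genes within 500 kb of any of them, by distance from the first base of SLAMF7 in kb, with dotted lines at 0.5 and -0.5. The 9 neighbours called higher are LY9, CD244, ITLN1 and F11R near SLAMF7 and FCGR2A, FCGR3A, FCGR2C, FCGR2B and FCRLB near FCRLA, and the neighbours between and around them in grey were not called.

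Around the other 5 genes, tested neighbours numbered 5 for CD2, 3 for IL7R, 18 for CD22, 8 for PAX5 and 6 for CD109. Calls there were 1 higher each near CD2, CD22 and CD109 and 1 lower each near IL7R, CD22 and PAX5. Over all tested genes, 6.26% were called higher and 2.46% lower. CD101, an immunoglobulin-like leukocyte protein 233 kb from CD2, rose from 41.4 and 42.3 TPM to 76.6 and 75.7 TPM (log2 fold change 0.85, adjusted p = 0.00282). SLC17A5, the lysosomal sialic acid exporter 41.8 kb from CD109, rose by 1.03 (adjusted p = 0.0049). Near CD22, FFAR2, a receptor for short-chain fatty acids, rose by 0.74 (adjusted p = 0.0179) and FXYD1, which was listed at 0 in 1 library, fell by 1.56 (adjusted p = 0.0475). SKP2, near IL7R, fell by 0.55 (adjusted p = 0.0107), and POLR1E, near PAX5, fell by 0.68 (adjusted p = 0.00826). Over all 9 genes, counted once, 74 neighbours were tested, 12 rose and 3 fell, and their median log2 fold change was -0.01. With a library labelled sh-ZNF217 left out, FFAR2 was not called (adjusted p = 0.0774 without the first and 0.0847 without the second), nor was FXYD1 (0.0661 and 0.136), which did not pass the filter on low values without either NC library. SKP2 lost its call without the first library labelled sh-ZNF217 (adjusted p = 0.0573) and POLR1E without the second (0.0515).

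The partners of the receptors did not show a common direction. CD58, the ligand of CD2, stood at 34.7 and 28.9 TPM in NC and at 46.8 and 37.4 TPM in the pair labelled sh-ZNF217 (log2 fold change 0.39, adjusted p = 0.113). Of 6 tested partners of CD2 and CD48, CD244 alone was called. Along the IL7R pathway, 0 of 12 tested genes were called higher by limma (2 had a higher level at an unadjusted p below 0.05), and 1 fell. IL2RG, the common gamma chain that pairs with IL7R, was at 236.2 and 245.3 TPM against 273.0 and 289.6 TPM, and JAK1, the kinase bound to IL7R, at 62.9 and 70.8 TPM against 86.99 and 84.9 TPM. Both were higher without overlap but short of the fold minimum (log2 fold change 0.22 and 0.36, adjusted p = 0.048 and 0.033). The kinase JAK3 (-0.09, adjusted p = 0.689) and CRLF2, the partner of IL7R for TSLP (-0.17, adjusted p = 0.682), were not called, and the sign of each depended on which libraries were used. IL7 and TSLP were not analysed here.

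SOCS2, a feedback inhibitor induced by STAT5, was the listed pathway gene that fell, from 22.5 and 18.8 TPM to 12.3 and 9.65 TPM (log2 fold change -0.86, adjusted p = 0.0229). SOCS2 was not called without the first NC library (adjusted p = 0.0684) or without the first or second library labelled sh-ZNF217 (0.0519 and 0.0812). Among 5 tested receptors of the common gamma chain group, IL2RG included, limma called 0. Of the 5, 2 had a higher level at an adjusted p below 0.05 but fell short of the fold minimum.

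**Figure D4:**
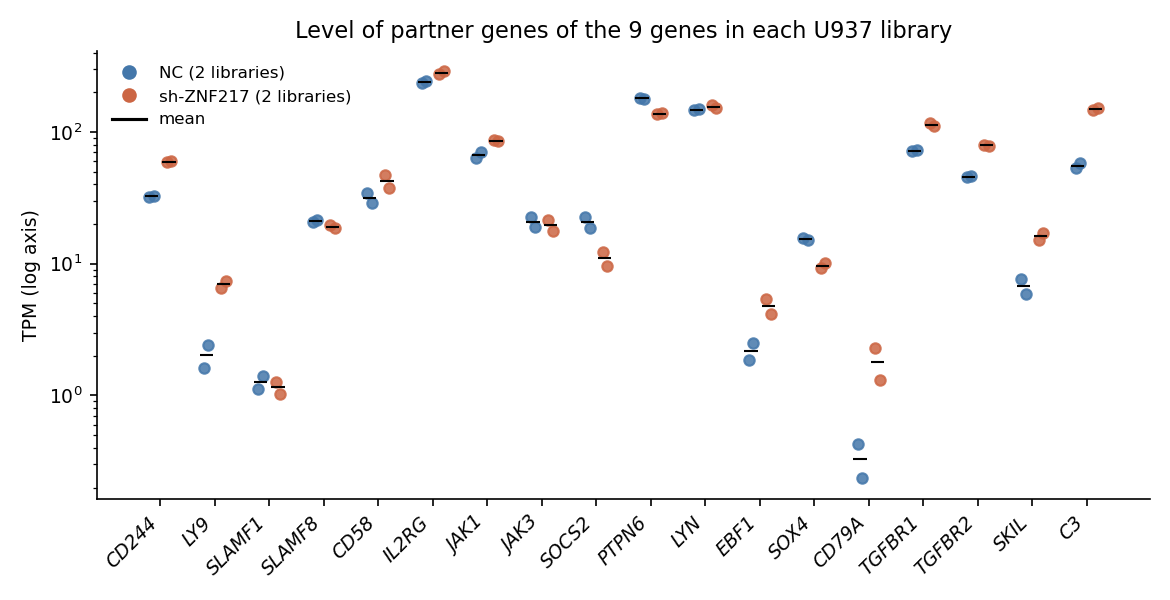
TPM (log axis) in each library of partner genes of the 9, with 1 point per library and a bar at each group's mean. CD244 (58.9 and 59.7 TPM against 32.1 and 32.8) and LY9 (6.54 and 7.45 TPM against 1.625 and 2.42) lie higher in the libraries labelled sh-ZNF217, SLAMF1 and JAK3 overlap between groups, and SOCS2, PTPN6 and SOX4 lie lower.

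For CD22, limma called 0 of 11 tested ligand and signalling genes (at an unadjusted p below 0.05, 2 had a higher and 2 a lower level). PTPN6, the phosphatase that CD22 recruits, was at 181.2 and 178.4 TPM in NC and at 136.4 and 139.0 TPM in the pair labelled sh-ZNF217. The lower level of PTPN6 was short of the fold minimum (log2 fold change -0.38, adjusted p = 0.0107). LYN, the kinase that phosphorylates CD22 (0.07, adjusted p = 0.41), and ST6GAL1, the enzyme that makes its sialic acid ligand (-0.17, adjusted p = 0.203), were not called.

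Genes of the B lineage did not move as a block. EBF1, the factor that acts with PAX5, was at 1.845 and 2.52 TPM in NC and at 5.39 and 4.18 TPM in the pair labelled sh-ZNF217, higher in both but not called (log2 fold change 0.86, adjusted p = 0.0518). EBF1 did pass with a stricter filter (adjusted p = 0.049) or with protein-coding genes alone (0.0234). It was called under no other alternative, with an adjusted p of 0.085 for the replicate block. SOX4, a factor of early B cells and myeloid progenitors, fell by 0.62 (adjusted p = 0.0217) and was the single call among 7 tested partners of PAX5. Among PAX5 targets, CD79A was at 0.426 and 0.235 TPM against 2.29 and 1.31 TPM (log2 fold change 1.06, adjusted p = 0.0659), and was called with protein-coding genes alone (0.0295). No other alternative called CD79A (0.0712 with the replicate block), which passed the filter on low values only through the libraries labelled sh-ZNF217. BLNK was below the filter, at 0.803 TPM or less in every library, and CD79B was not analysed here. Of 18 listed targets and markers of B cells, 11 were not analysed here. Among the 6 tested, BANK1, a B cell scaffold, rose by 0.90 (adjusted p = 0.0442). The calls of SOX4 and BANK1 were lost without any 1 of the libraries (adjusted p = 0.0628 to 0.0887 and 0.113 to 0.154).

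PRDM1, the repressor that drives plasma cell formation and lowers PAX5 in B cells, rose from 2.61 and 2.85 TPM to 10.35 and 11.45 TPM (log2 fold change 1.67, SE 0.15, adjusted p = 0.00489). Its part in the level of PAX5 here was not tested. PRDM1 was the call among 3 tested plasma cell markers, and 5 of the 8 listed were not analysed here. XBP1 and DERL3, which serve secretion, were at log2 fold changes of -0.15 and -0.75 and were not called (adjusted p = 0.128 and 0.0949).

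CD109 belongs with the complement protein C3 to the thioester family, and C3 rose from 52.9 and 58.1 TPM to 145.5 and 152.6 TPM (log2 fold change 1.41, SE 0.07, adjusted p = 0.00122). C3 was 1 of 2 tested genes among the 8 listed for that family, and 4 of the 8 were not analysed here. The other tested gene, C5, was not called (log2 fold change 0.10, adjusted p = 0.652). Of 15 tested genes of the TGF-beta pathway, which CD109 is known to restrain, 5 rose and 0 were called lower by limma. Among all tested genes, 6.26% were called higher and 2.46% lower. Of the 15, 1 had a lower level at an adjusted p below 0.05 but fell short of the fold minimum. The receptor TGFBR1 rose from 71.9 and 72.5 TPM to 116.4 and 111.1 TPM (0.65, adjusted p = 0.00487), and TGFBR2 from 45.2 and 45.9 TPM to 79.6 and 78.6 TPM (0.78, adjusted p = 0.00324). The inhibitors SKI (0.60, adjusted p = 0.0154) and SKIL (1.145, adjusted p = 0.0118) also rose, whereas the inhibitor SMAD7 was not called (0.39, adjusted p = 0.203). With a library labelled sh-ZNF217 left out, SKI and SKIL were not called (adjusted p = 0.0648 and 0.0565 without the first, 0.0765 and 0.0674 without the second). SKI also fell short of the fold minimum without the second NC library (0.49).

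Markers of the cell types named in these descriptions were set beside the 9 genes. Of 26 markers of T and natural killer cells, 22 were not analysed here, the CD3 chains among them, and 3 were tested. The 4 with a row summed to 124.9 and 100.7 TPM in NC and to 147.3 and 150.3 TPM in the pair labelled sh-ZNF217. LAT, an adaptor of T cells and mast cells, rose among them by 0.58 (adjusted p = 0.033), and its call was lost without any 1 of the libraries (0.0862 to 0.13). NKG7 and NCAM1, which were not called, made up most of the summed level of the 4. The 7 B cell markers with a row summed to 164.4 and 154.6 TPM against 141.3 and 150.9 TPM, most of it CD37. Erythroid and megakaryocyte markers summed to 7.17 TPM or less and epithelial and fibroblast markers to 1.40 TPM or less in every library.

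Some monocytic markers were higher in the same libraries. All 15 had a row, and they summed to 5064 and 5023 TPM in NC against 7696 and 7621 TPM in the pair labelled sh-ZNF217, mostly from LYZ, with MPO at 0.513 TPM or less. Of 14 tested, 7 rose and 0 were called lower by limma (1 had a lower level at an unadjusted p below 0.05). Among all tested genes, 6.26% were called higher and 2.46% lower. ITGAM, the alpha chain of an integrin of mature myeloid cells, rose by 1.38 (adjusted p = 0.00143), CD86, a costimulatory ligand, by 2.40 (adjusted p = 0.00141) and lysozyme, LYZ, by 0.73 (adjusted p = 0.0013). Their part in the levels of the 9 genes was not tested.

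Other surface antigens with a CD number gave a wider frame. Of 37 tested, 10 rose and 0 were called lower by limma, and the median log2 fold change of the 37 was 0.34. Among all tested genes, 6.26% were called higher and 2.46% lower. Of the 37, 1 had a lower level at an adjusted p below 0.05 but fell short of the fold minimum. The 6 with the smallest p included CD86, CD101 and CD244, and also the scavenger receptor CD36 (3.23, adjusted p = 0.000306), the leukocyte antigen CD52 (1.41, adjusted p = 0.00182) and the tetraspanin CD53 (0.81, adjusted p = 0.00491).

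Over the 4 libraries, the tested genes with the pattern nearest to SLAMF7, by Euclidean distance of log2(TPM + 1) about each gene's own mean, were CD109 at 0.228, OLR1 at 0.257, ADAM28 at 0.274, CD36 at 0.363 and FABP4 at 0.414. OLR1, a scavenger receptor, was at 0.816 and 1.325 TPM in NC and at 13.1 and 14.85 TPM in the pair labelled sh-ZNF217. For CD48 they were CRYBG1 at 0.0214, RETSAT at 0.0312, GCLC at 0.0353, IL6ST at 0.0356 and CTSA at 0.0357. With 4 libraries in 2 groups, this distance mostly measures a like size of group difference.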

How the data were processed

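Total RNA of U937 cells had been made into 4 TruSeq libraries. Per the submitters' processing notes and the study's methods, the authors aligned filtered reads with HISAT2 2.0.5 to hg38. Not given in the sources used here are the quantifier, annotation release, strand setting and read depth. The study names its measure FPM, but the deposited columns sum to 998932 to 999282 and act as TPM, which the authors deposited without a unit. TPM is relative, so a rise of abundant genes lowers others, and no interval for counting error was possible. Column names hold NC or ZNF with a replicate number, which placed each column. Other parts of those names are not explained.

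Gene names and positions came from GENCODE 44 by Ensembl identifier (16143 of 17656 named), and promoters from RefSeq. Values were transformed to log2(TPM + 1), which understates changes of low genes. Folds are ratios of mean TPM. The 14582 genes with at least 1 TPM in 2 libraries entered a limma 3.58.1 fit in R 4.3.3 with group as the single term, trended and robust empirical Bayes and Benjamini-Hochberg adjustment across them. Calls needed an adjusted p below 0.05 and a log2 fold change beyond 0.5 in either direction. Figures were drawn with matplotlib 3.10.9.

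The 9 genes, the 15 pathway and marker lists (193 genes, of which 97 were tested, 24 called higher and 2 lower) and the tests were chosen with earlier results of these data known. Named genes were the 9, up to 6 called genes per list with the smallest p, defining partners whatever their value, called neighbours within 500 kb, the 6 CD-numbered genes with the smallest p, and the 5 genes nearest in pattern to SLAMF7 and to CD48. XBP1, DERL3, CD37, NKG7, NCAM1, FYN, MPO, C5 and MYB were added after their values were seen. Some listed genes enter the counts but are not reported here by name. Alternatives were a pseudocount of 0.1, no filter, a mean of at least 2 TPM, median-of-ratios scaling, protein-coding genes alone, a model with neither trend nor robust moderation, the replicate number as a block, and each library left out in turn.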

Additional observations from a re-analysis of the deposited data

How the results depend on the processing

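All 9 genes kept their direction under all 11 alternatives, and SLAMF7, CD84, CD48, IL7R, FCRLA and CD109 were called under each of them. FCRLA and CD109 passed the main filter only through the libraries labelled sh-ZNF217. The number of the 9 that were called was 6 to 7 with 1 library left out, 8 without the filter and 8 with neither trend nor robust moderation. A pseudocount of 0.1 widened the fold changes of low genes, for example to 3.60 for CD109 and -1.06 for PAX5. The pathway and marker lists had 26 calls, and 12 to 20 with 1 library left out (17 without the second NC library, 12 and 13 without the first and the second library labelled sh-ZNF217). Neighbours had 15 calls, and 7 to 12 with 1 library left out (7 with the first and 9 with the second library labelled sh-ZNF217 removed). CD-numbered genes called stayed between 8 and 12 under the alternatives run. Of 43 other called genes that the naming rule picked, 22 were called under every alternative and 21 lost the call with at least 1 library left out. Signs turned, in genes that were not called, for CRLF2 (-0.40 to 0.0689 with a library left out), JAK3 (-0.225 to 0.0464) and SLAMF1 (-0.16 to 0.01998). The cause of these changes was not tested beyond the smaller number of libraries.

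Replicate numbers are shared by the groups, but deviations of same-numbered libraries did not go together (correlation -0.01), so the numbers were not taken to pair the libraries. With the replicate block, 7 of the 9 genes, 23 pathway and marker genes, 12 neighbours and 10 CD-numbered genes were called. CD22 and PAX5 were not, nor were BANK1 (adjusted p = 0.0716), FCRLB (0.0775), LAT (0.0611), ITLN1 (0.0528), FXYD1 (0.0716) and IL6ST (0.0604). Median-of-ratios scaling shifted the median log2 fold change by -0.03. With 2 libraries a group and no read counts, levels near 1 TPM, such as those of CD109, FCRLA, IL7R and CD2 in NC, are the least certain.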
